A study of Mus musculus with 6 samples.

Results

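The 8 genes described here encode the platelet-derived growth factor (PDGF) ligands, Pdgfa, Pdgfb, Pdgfc and Pdgfd, their receptors, Pdgfra and Pdgfrb, and the hepatocyte growth factor pair, Hgf and its receptor Met. They were chosen by gene symbol, and all 8 were found among the 48368 symbols of the deposited count tables. Expression was measured by RNA-seq in 3 libraries labelled KO (Hic-5-/-) and 3 labelled HET (Hic-5+/-), which keep a copy of the gene, with no wild-type group. All came from primary fibroblast cultures grown out of mammary tumours of MMTV-PyMT mice, in which a mouse mammary tumour virus promoter drives the polyoma middle T oncogene mainly in mammary epithelium. Single cells were freed with collagenase and trypsin, parted from tumour organoids by centrifugation and grown in serum-containing medium. Ages and passage numbers are not given in the sources used here. Most titles carry different numbers, yet the series text speaks of technical triplicates. The p-values therefore rest on the spread among these 6 libraries alone, which may be technical. KO replicate 3 and HET replicate 3 share a title number.

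PDGF ligands are secreted dimers that pair and activate receptor tyrosine kinases. PDGF-A and PDGF-B are cut to their active form inside the cell, whereas PDGF-C and PDGF-D leave the cell with a CUB domain that extracellular proteases must remove. PDGF-A and PDGF-C act mainly through the alpha receptor, PDGF-D mainly through the beta receptor and PDGF-B through either. In connective tissue the alpha receptor is a marker of fibroblasts, and the beta receptor is shared by fibroblasts, pericytes and smooth muscle. HGF, also called scatter factor, is classically made by mesenchymal cells and acts on epithelial cells through the receptor tyrosine kinase Met.

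Library totals ran from 24954273 to 42470598 estimated counts. Tgfb1i1, which encodes the targeted protein Hic-5, stood at 90.4, 0.232 and 156 CPM (counts scaled to a common library total with TMM factors) in KO replicates 1 to 3, against 223, 348 and 125 CPM in HET replicates 1 to 3. The targeted transcript was thus near 0 in only 1 library labelled KO, and every direction below compares labels. KO replicate 2 also stood apart in muscle genes. Its 11 pericyte and smooth muscle markers summed to 181 CPM, while the same sum was 2729 to 4737 CPM in the other KO libraries and 3614 to 11161 CPM in the HET libraries. Not every marker was low there: Mcam was at 76.3 CPM, level with HET replicate 2 as the highest, and Abcc9 was highest, at 0.103 CPM. Acta2 and Tagln, at 45.5 and 33.9 CPM, were lowest there. Of 12 epithelial markers, 9 were highest in KO replicate 2, with Krt18 at 37.9 CPM and Cdh1 at 14.6 CPM there. Leukocyte markers summed to 1119 CPM in KO replicate 3 and 1381 CPM in HET replicate 2, and to between 10.5 and 33.9 CPM in the other 4 libraries. Fewer cells of a type and less RNA per cell cannot be told apart in such bulk libraries. Fibroblast markers summed to 7630 to 8638 CPM in KO and 11191 to 23426 CPM in HET, a sum lower in every KO library than in any HET library. Of these 12 genes, only Fap was at 0 in a library (HET replicate 3). In KO replicate 2 the list was mixed, with Col1a2, Thy1 and Dcn at 0.491, 0.981 and 0.775 CPM and Fn1, Vim and Postn at 4176, 2870 and 440 CPM.

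**Figure D1:**
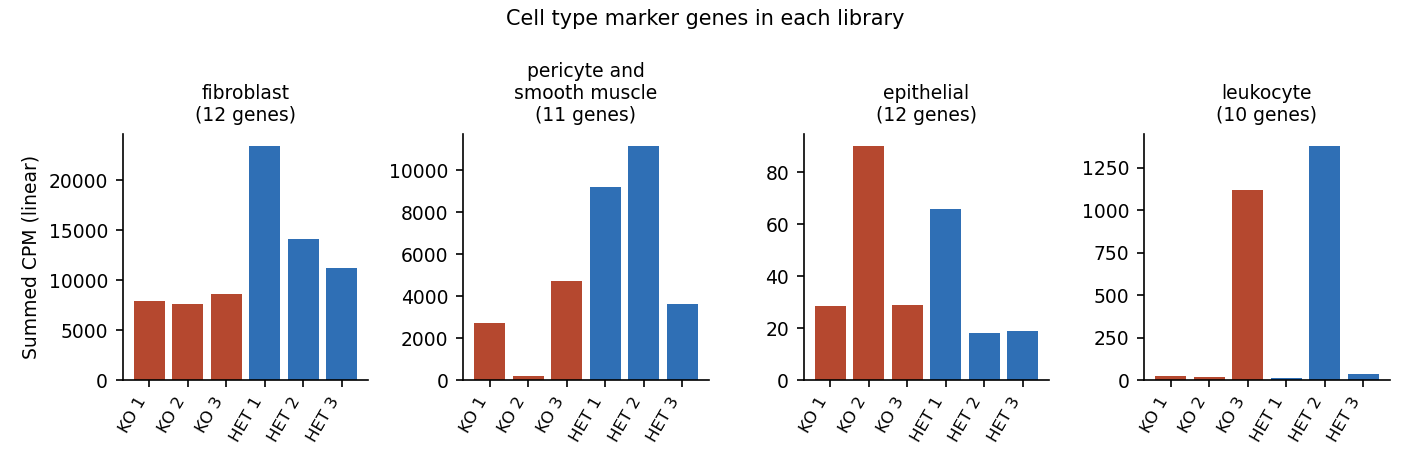
Summed CPM (linear axis from 0) of the marker genes of 4 cell types in each library, KO bars left and HET bars right. The pericyte and smooth muscle sum is lowest in KO replicate 2 at 181 CPM, and the leukocyte sum reaches 1119 CPM in KO replicate 3 and 1381 CPM in HET replicate 2.

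None of the 8 genes passed the test of KO against HET. All 8 passed the filter on low counts. In edgeR's quasi-likelihood test with Benjamini-Hochberg adjustment over 17584 genes, 0 of the 8 passed an adjusted p of 0.05, as did 0% of all tested genes, and the smallest adjusted p among the 8 was 0.589. At an unadjusted p under 0.05 the count was 0 of 8, where 8.59% of all tested genes lay under it. At the same unadjusted threshold limma-voom gave 0 of 8, against 8.75% of its genes. DESeq2 gave 2 of 8, or Met and Pdgfd, against 11.2% of its genes. Its unadjusted p was 0.0218 for Met (adjusted p = 0.305) and 0.0287 for Pdgfd (adjusted p = 0.339). Met and Pdgfd also lay under it by edgeR with no filter on low counts, at an unadjusted p of 0.0463 and 0.0499 (adjusted p = 0.717 for each), against 6.55% of the genes in that fit. After adjustment DESeq2 called 0 of the 8, against 1.53% of the genes with a DESeq2 adjusted p. The KO and HET libraries overlapped for each of the 8 genes, while the labels did not overlap in 15.5% of all tested genes. The log2 fold change (KO over HET) was negative for 6 of the 8 and positive for 2, with a median of -0.16 where all tested genes had 0.01.

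**Figure D2:**
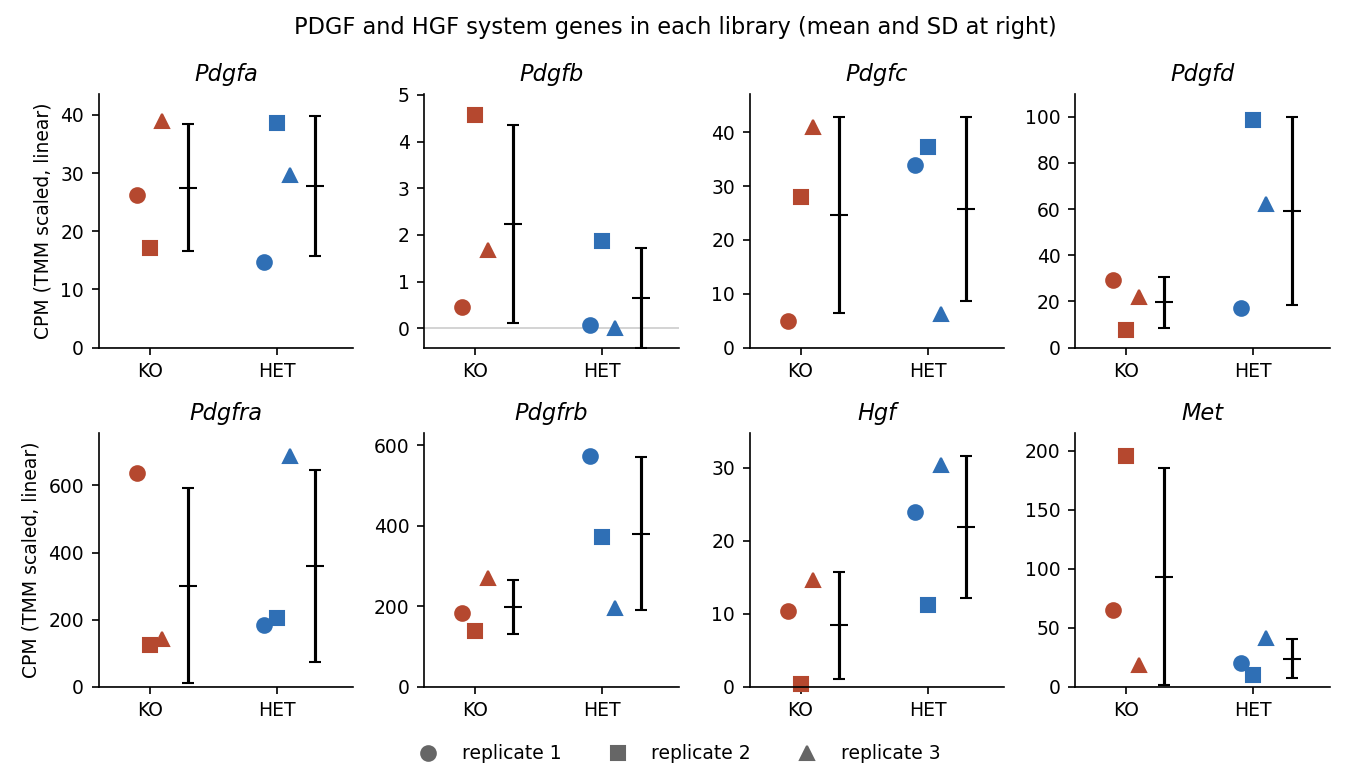
CPM (linear axis) of each gene in every library, with KO left and HET right in each panel; the marker shape gives the replicate and the bar gives mean and SD of 3 libraries. KO replicate 1 and HET replicate 3 are the high points of Pdgfra (636 and 689 CPM) and the low points of Pdgfc (4.96 and 6.16 CPM).

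Pdgfa, which encodes the PDGF-A chain (ENSMUSG00000025856.15, chromosome 5 from 138976014 to 138997370, minus strand, GRCm38), was the steadiest of the 8 genes. It had 26.3, 17.2 and 38.9 CPM in KO replicates 1 to 3, and 14.8, 38.6 and 29.7 CPM in HET replicates 1 to 3. The highest library exceeded the lowest 2.62-fold, and both labels spanned nearly the same range. The means were 27.5 ± 10.9 CPM in KO and 27.7 ± 12.0 CPM in HET (SD, n = 3 each). KO over HET gave a log2 fold change of -0.02 ± 0.45 (SE), with a 95% interval from -1.09 to 1.06 and an edgeR adjusted p of 0.994. An annotated antisense gene, 6330403L08Rik, overlaps the start of Pdgfa, and no source used here says whether reads were counted by strand, so reads of the overlap may be shared.

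Pdgfb encodes the PDGF-B chain that endothelial cells and platelets typically supply (ENSMUSG00000000489.7, chromosome 15 from 79995874 to 80014977, minus strand). It was low throughout and lay under the floor of 3 counts in HET replicates 1 and 3. It had 20, 177 and 42 estimated counts in KO replicates 1 to 3, and 2, 66 and 0 in HET replicates 1 to 3. In CPM these were 0.455, 4.57 and 1.67 in KO, and 0.0708, 1.88 and 0 in HET. A count of 0 in HET replicate 3 allows up to 0.118 CPM, with 3 counts as the floor and counting error only. KO replicate 2 was the highest library, and HET replicate 2 lay above KO replicates 1 and 3. The fitted log2 fold change was 1.75 ± 1.63 (edgeR adjusted p = 0.736). It was 3.11 by limma-voom, and by edgeR it was 0.65 without KO replicate 2 and 5.79 without HET replicate 2 (adjusted p = 0.986 and 0.975). Leukocyte markers, macrophage genes such as Lyz2 among them, were high in KO replicate 3 and HET replicate 2, and at 16.6 CPM summed in KO replicate 2, where 5 of the 10 markers, Ptprc and Adgre1 included, were at 0. Their part in the level of Pdgfb was not tested. The endothelial markers summed to 1.37 to 13.1 CPM in KO and 2.80 to 7.54 CPM in HET, with Cldn5 at 0 throughout.

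Pdgfc, a ligand of the alpha receptor that needs proteolytic activation (ENSMUSG00000028019.9, chromosome 3 from 81036416 to 81214040, plus strand), lay at a high or a low level that cut across the labels. It had 4.96, 27.9 and 40.9 CPM in KO replicates 1 to 3, and 33.9, 37.3 and 6.16 CPM in HET replicates 1 to 3. KO replicate 1 and HET replicate 3 were the low libraries, and the other 4 lay at 27.9 CPM or above. The means were 24.6 ± 18.2 CPM in KO and 25.8 ± 17.1 CPM in HET (SD, n = 3 each), and the log2 fold change was -0.07 ± 0.89 (interval -2.22 to 2.08, edgeR adjusted p = 0.985). Within the libraries of the shared title number, KO replicate 3 exceeded HET replicate 3 by 6.65-fold.

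Pdgfd is the ligand that acts mainly on the beta receptor (ENSMUSG00000032006.15, chromosome 9 from 6168584 to 6378850, plus strand). It had the lowest unadjusted p of the 8 genes in the main edgeR fit, though not by DESeq2 or without the filter on low counts. It had 29.5, 7.54 and 21.9 CPM in KO replicates 1 to 3, and 17.3, 98.5 and 62.0 CPM in HET replicates 1 to 3. HET replicates 2 and 3 lay above every KO library, while HET replicate 1 lay below KO replicates 1 and 3. The means were 19.6 ± 11.1 CPM in KO and 59.3 ± 40.7 CPM in HET (SD, n = 3 each). KO over HET came to -1.59 ± 0.73 on the log2 scale (interval -3.37 to 0.18), and neither edgeR (unadjusted p = 0.0707, adjusted p = 0.589) nor DESeq2 (adjusted p = 0.339) placed it past the threshold. With a library left out it ran from -2.03 without KO replicate 1 to -1.01 without HET replicate 2 (adjusted p = 0.538 and 0.975).

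Pdgfra, which encodes the alpha receptor (ENSMUSG00000029231.15, chromosome 5 from 75152292 to 75198215, plus strand), was also split across the labels. It had 636, 124 and 143 CPM in KO replicates 1 to 3, and 184, 204 and 689 CPM in HET replicates 1 to 3. KO replicate 1 and HET replicate 3, the libraries lowest in Pdgfc, were the highest in Pdgfra, and the other 4 libraries lay between 124 and 204 CPM. The means were 301 ± 290 CPM in KO and 359 ± 286 CPM in HET (SD, n = 3 each), with a log2 fold change of -0.25 ± 0.82 (interval -2.24 to 1.73, edgeR adjusted p = 0.929). The sign turned with the libraries used, at -1.42 without KO replicate 1 and 0.64 without HET replicate 3. In the libraries of the shared title number, KO replicate 3 was at 0.208 times HET replicate 3.

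Pdgfrb, which encodes the beta receptor (ENSMUSG00000024620.11, chromosome 18 from 61045150 to 61085061, plus strand), had 184, 138 and 270 CPM in KO replicates 1 to 3, and 574, 371 and 195 CPM in HET replicates 1 to 3. HET replicates 1 and 2 lay above every KO library, whereas HET replicate 3 lay between KO replicates 1 and 3. The means were 197 ± 67.0 CPM in KO and 380 ± 190 CPM in HET (SD, n = 3 each). The log2 fold change of -0.95 ± 0.46 (interval -2.05 to 0.16) did not pass edgeR (adjusted p = 0.592). It was -1.26 without HET replicate 3 (adjusted p = 0.816), -0.52 without HET replicate 1 (adjusted p = 0.688) and -1.58 once KO replicate 3 and HET replicate 3, which share a title number, were left out together (adjusted p = 0.482). KO replicate 3 alone was 1.39 times HET replicate 3. The pericyte and smooth muscle markers also summed lowest in KO replicate 2, at 181 CPM, and highest in HET replicates 1 and 2, at 9201 and 11161 CPM. Of these markers, Kcnj8 and Abcc9 were at 0 to 0.273 CPM and 0 to 0.103 CPM, and Acta2 was at 45.5 to 2179 CPM in KO and 1821 to 6455 CPM in HET. Mcam did not follow the sum, at 76.3 CPM in both KO replicate 2 and HET replicate 2. Their part in the Pdgfrb levels was not tested.

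The ratio of the receptor genes therefore turned over between libraries of the same label. Per exonic kilobase, Pdgfra stood at 1.89, 0.492 and 0.291 times Pdgfrb in KO replicates 1 to 3, and at 0.175, 0.30 and 1.93 times in HET replicates 1 to 3. Pdgfra was the higher receptor gene in KO replicate 1 and HET replicate 3, and Pdgfrb in the other 4. In the deposited RPKM values, which are scaled to the genomic span of a gene rather than to its exons, the same ratio was 3.01, 0.783 and 0.462 in KO and 0.278, 0.477 and 3.08 in HET. The same libraries fell above and below 1 on both scales. Both rest on the same counts and differ here only by gene length, so this is no separate check.

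**Figure D3:**
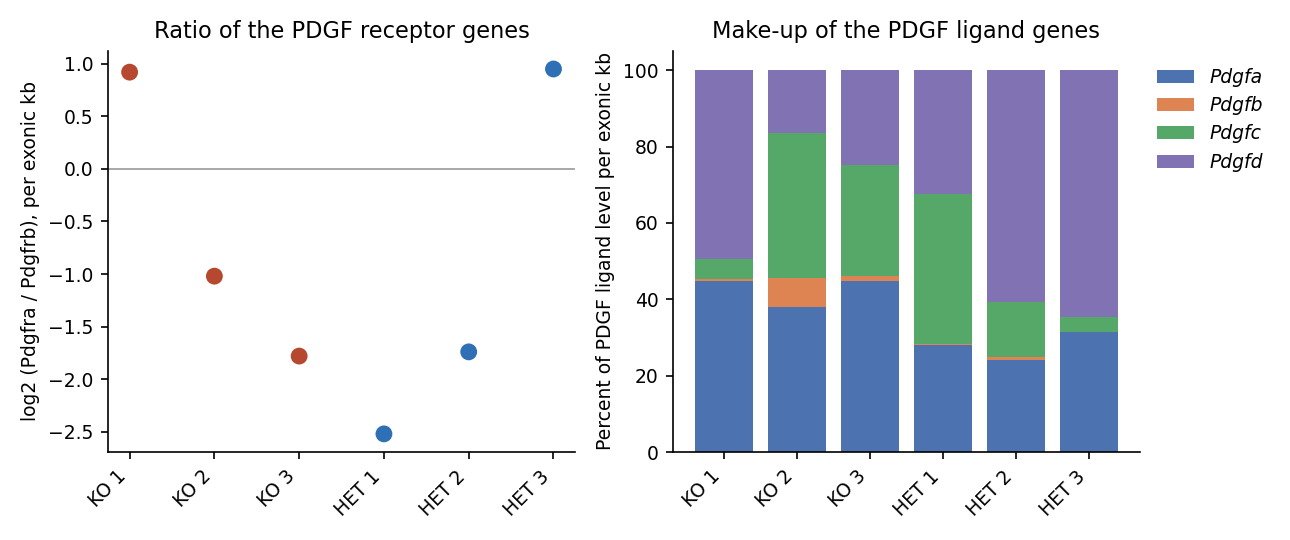
Left, log2 ratio of Pdgfra to Pdgfrb per exonic kilobase in each library; right, the share of each ligand gene in the summed ligand level per exonic kilobase (percent, stacked to 100). The ratio is above 0 only in KO replicate 1 (0.92) and HET replicate 3 (0.95), where Pdgfc makes up 5.17% and 3.98% of the ligand level.

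The leading ligand gene differed too when levels were divided by exonic length. Per exonic kilobase, Pdgfd was the largest share of the 4 ligand genes in KO replicate 1 (49.6%) and in HET replicates 2 and 3 (60.8% and 64.7%). Pdgfa was the largest in KO replicates 2 and 3, at 38.1% and 44.8%, although Pdgfc was at 37.8% in KO replicate 2. Pdgfc was the largest in HET replicate 1, at 39.4%. Pdgfb made up 0.580% to 7.58% in KO and 0% to 0.877% in HET. These shares depend on the length used, and whether exons or whole genes were counted is not given. On the deposited RPKM scale, which divides by gene span, Pdgfa had the highest mean of the 4 ligand genes. It averaged 1.05 over the 6 libraries, against 0.149 for Pdgfd, 0.114 for Pdgfc and 0.0644 for Pdgfb.

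Levels of the 8 genes were compared with each other in CPM per exonic kilobase. By the mean over all 6 libraries Pdgfrb came first, at 36.0 ± 12.2 in KO and 69.4 ± 34.7 in HET, and Pdgfra second, at 30.0 ± 28.9 in KO and 35.8 ± 28.6 in HET (SD, n = 3 each). The receptor genes overlapped each other within both labels, so their order is not beyond the spread. Pdgfd came next by that mean, at 6.23 ± 3.53 in KO and 18.8 ± 12.9 in HET, although in KO it lay below Met and Pdgfa. Pdgfa was at 8.80 ± 3.49 in KO and 8.89 ± 3.86 in HET, Met at 12.1 ± 12.0 in KO and 3.11 ± 2.12 in HET, and Pdgfc at 4.83 ± 3.58 in KO and 5.07 ± 3.36 in HET. The order was not fixed: Met was the highest of the 8 genes in KO replicate 2, and Pdgfd lay above Pdgfra in HET replicate 2. Hgf was at 1.17 ± 1.02 in KO and 3.05 ± 1.36 in HET, and Pdgfb at 0.536 ± 0.508 in KO and 0.156 ± 0.256 in HET. Hgf lay above Pdgfc in KO replicate 1 and HET replicate 3, and above Met in HET replicates 1 and 2. Pdgfb was the lowest of the 8 genes in every library except KO replicate 2, where Hgf was. On the deposited RPKM scale, which divides by the whole gene span, Pdgfra averaged 5.88 and Pdgfrb 5.75 over the 6 libraries, and Pdgfd, whose gene spans 210.3 kb, dropped from the third to the sixth place.

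Hgf, the ligand of Met (ENSMUSG00000028864.7, chromosome 5 from 16553495 to 16620152, plus strand), was nearly missing from a single library. It had 10.3, 0.362 and 14.6 CPM in KO replicates 1 to 3, and 24.0, 11.2 and 30.4 CPM in HET replicates 1 to 3. KO replicate 2, with 14 estimated counts, was far below the rest, and HET replicate 2 lay between KO replicates 1 and 3. The means were 8.44 ± 7.32 CPM in KO and 21.9 ± 9.76 CPM in HET (SD, n = 3 each). On the log2 scale KO over HET was -1.38 ± 1.09 (interval -4.02 to 1.26, edgeR adjusted p = 0.697), and with a library left out it ran from -2.02 without KO replicate 3 to -0.81 without KO replicate 2 (adjusted p = 0.520 and 0.950). In the libraries of the shared title number, KO replicate 3 was at 0.481 times HET replicate 3. The 12 fibroblast markers summed to 7630 CPM in KO replicate 2, against 7933 and 8638 CPM in the other KO libraries. Fn1 and Vim, at 4176 and 2870 CPM, made up most of the sum in KO replicate 2. Fn1 and Postn (440 CPM) lay above the other KO libraries there. Col1a1, Col1a2, Dcn, Lum and Thy1 lay below them, at 0.0258 to 2.56 CPM. The part of fibroblast content in the Hgf level was not tested.

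Met, the HGF receptor (ENSMUSG00000009376.15, chromosome 6 from 17463800 to 17573980, plus strand), was highest in the same library. It had 65.2, 196 and 18.6 CPM in KO replicates 1 to 3, and 20.3, 9.64 and 41.6 CPM in HET replicates 1 to 3. KO replicates 1 and 2 lay above every HET library, while KO replicate 3 lay below HET replicates 1 and 3. The means were 93.3 ± 92.0 CPM in KO and 23.9 ± 16.3 CPM in HET (SD, n = 3 each). Its log2 fold change of 1.97 ± 0.92 (interval -0.24 to 4.18) passed neither edgeR (unadjusted p = 0.0724, adjusted p = 0.589) nor DESeq2 (adjusted p = 0.305). It was 0.83 without KO replicate 2 (adjusted p = 0.960), 2.64 without HET replicate 3 (adjusted p = 0.816), and 3.09 with the same-numbered KO and HET libraries left out together (adjusted p = 0.456). Of those, KO replicate 3 was at 0.448 times HET replicate 3. Epithelial markers summed to 28.5, 90.3 and 29.1 CPM in KO replicates 1 to 3, and 65.8, 18.0 and 19.1 CPM in HET replicates 1 to 3, where Krt19 gave 64.1 CPM of the HET replicate 1 sum. Epcam was at 5.66 CPM in KO replicate 2 and at 0.182 to 0.912 CPM elsewhere, and Krt14 was at 0 in KO replicate 1. The part of such cells in the Met level was not tested.

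Per exonic kilobase, Met stood at 5.91, 507 and 1.19 times Hgf in KO replicates 1 to 3, and at 0.791, 0.803 and 1.28 times in HET replicates 1 to 3. In 4 of the 6 libraries the receptor and its ligand thus differed little, at ratios between 0.791 and 1.28. The ratio of 507 rests on 14 estimated Hgf counts in 1 library. KO replicate 2 combined the highest Met, the lowest Hgf and the lowest Tgfb1i1 of the series. It was also lowest in Col1a2, Thy1 and Acta2, at 0.491, 0.981 and 45.5 CPM. Krt18 and Cdh1 were highest there, at 37.9 and 14.6 CPM. Whether Tgfb1i1 had a part in the Met and Hgf levels was not tested.

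**Figure D4:**
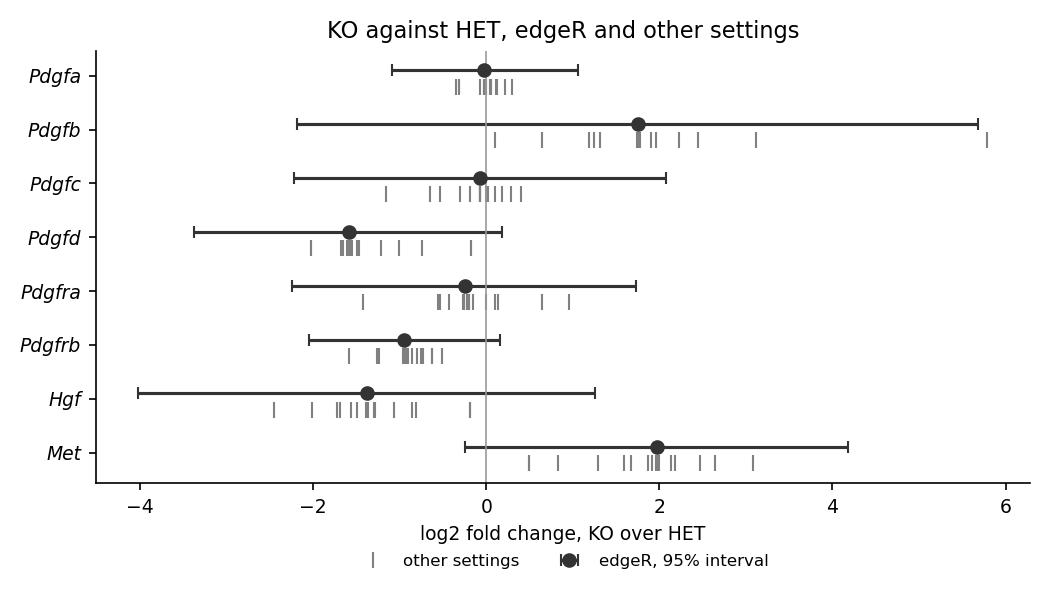
Log2 fold change of KO over HET for each gene from edgeR (points, with 95% intervals) and under every other setting tried (grey ticks). Each interval spans 0, from -0.24 to 4.18 for Met and from -3.37 to 0.18 for Pdgfd.

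The 250 bases before the annotated start (RefSeq, GRCm38.p6, gene strand) are shown for Met, the gene with the largest positive log2 fold change of the 8, and for Pdgfra and Pdgfc, which stood at opposite ends in the same libraries. Entries for 6 of the 8 genes were matched by symbol. Capitals mark matches, on either strand, to GGGCGG (the GC box), TGANTCA (AP-1), CCGGAA (an ETS core), CACGTG (an E-box) and TATAAA.
Met, chr6:17463707-17463956, plus strand: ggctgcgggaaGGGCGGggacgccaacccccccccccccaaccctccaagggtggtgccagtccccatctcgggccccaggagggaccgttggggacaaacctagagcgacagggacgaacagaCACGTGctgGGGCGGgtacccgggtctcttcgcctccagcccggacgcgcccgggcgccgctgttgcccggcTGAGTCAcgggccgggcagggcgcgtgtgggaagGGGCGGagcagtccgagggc
Pdgfra, chr5:75152001-75152250, plus strand: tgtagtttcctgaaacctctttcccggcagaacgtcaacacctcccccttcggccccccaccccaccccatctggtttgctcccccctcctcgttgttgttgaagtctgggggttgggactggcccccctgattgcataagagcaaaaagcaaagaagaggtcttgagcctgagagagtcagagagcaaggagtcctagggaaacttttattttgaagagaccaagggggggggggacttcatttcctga
Pdgfc, chr3:81036166-81036415, plus strand: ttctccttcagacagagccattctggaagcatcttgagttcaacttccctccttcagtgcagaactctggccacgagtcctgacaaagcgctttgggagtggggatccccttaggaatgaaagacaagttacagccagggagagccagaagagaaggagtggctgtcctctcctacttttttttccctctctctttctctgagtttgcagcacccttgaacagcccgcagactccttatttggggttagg

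The Met window held 3 GC boxes, 1 AP-1 match and 1 E-box, with 74% G and C and 24 CpG dinucleotides. The start of Met given above, 17463800, is from GENCODE and lies inside this RefSeq-based window. Of the matches, only the leftmost GC box lies before that start. The Pdgfra and Pdgfc windows held none of the 5 motifs, with 54.4% and 50.8% G and C and 4 and 3 CpG dinucleotides. Over 32841 such windows the median was 52.4% G and C with 6 CpG dinucleotides, and 32.7% held a GC box, 6.75% AP-1, 12.0% the ETS core, 6.02% the E-box and 12.4% TATAAA. The matches describe letters in these windows only.

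The genes nearest to each of the 8 in pattern were sought among 12201 genes by the root mean square difference of log2 CPM, each gene centred on its own mean over the 6 libraries. Nearest to Pdgfra were Lrrc61 (0.32 log2 units), Akr1b3 (0.35) and Nfkbiz (0.36), and nearest to Pdgfrb were P4ha1 (0.18), Aldoart1 (0.20) and P3h1 (0.20). P4ha1 and P3h1 encode collagen prolyl hydroxylases, and Aldoart1 is a retrogene that may share reads with Aldoa. Nearest to Pdgfc were Angptl2 (0.26), Jag1 (0.30) and Mcf2l (0.30), and nearest to Pdgfd were Hist1h1c (0.17), Plxdc2 (0.30) and Cacnb4 (0.33). Nearest to Met were Ezr (0.30), which encodes the membrane linker ezrin, Il18rap (0.34) and Amigo2 (0.38). Nearest to Hgf were Rnf165 (0.37), Cd55b (0.43) and Klhl29 (0.44), to Pdgfa Perm1 (0.14), Mef2a (0.14) and Zfp935 (0.17), and to Pdgfb Moxd1 (0.76), Sema4d (0.90) and Fmnl1 (0.97). With 6 libraries and so many genes searched, close matches arise easily, and these are given as a description.

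Genes that process these ligands or carry their signals were counted in the same way. Of 111 genes in 5 pathway lists, 103 were tested and 0 passed edgeR's adjusted threshold. At an unadjusted p under 0.05 there were 9, or 8.74%, with 3 higher and 6 lower in KO, against 8.59% of all tested genes. The labels did not overlap in 14, or 13.6%, against 15.5% of all tested genes. Both shares were near the background, and the counts of the single lists are to be read against it. The median log2 fold change over the 103 was -0.07, against 0.01 for all tested genes.

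Of 23 tested genes of ligand processing and co-receptors, 2 were higher and 1 lower in KO at an unadjusted p under 0.05. Itga6, an integrin subunit that pairs with Itgb4 in a receptor known to associate with Met, had 21.5, 187 and 73.1 CPM in KO replicates 1 to 3, and 12.6, 15.7 and 12.8 CPM in HET replicates 1 to 3. Its log2 fold change was 2.78 ± 0.74 (edgeR adjusted p = 0.579, DESeq2 adjusted p = 0.0157). Its highest library, KO replicate 2, was also the highest in the epithelial sum, whose part was not tested. Cd44, a hyaluronan receptor whose variants act as Met co-receptors, had 727, 548 and 1079 CPM in KO, and 220, 366 and 520 CPM in HET, with a log2 fold change of 1.09 ± 0.42 (edgeR adjusted p = 0.579). Every KO library lay above every HET library for both genes. Sparc, a matrix glycoprotein that binds PDGF, had 1183, 1126 and 1989 CPM in KO and 9726, 4928 and 2723 CPM in HET, with a log2 fold change of -2.02 ± 0.56 (edgeR adjusted p = 0.579, DESeq2 adjusted p = 0.0233). Sparc is itself abundant in fibroblasts, whose marker sum was likewise lower in each KO library, and the part of that in Sparc was not tested. Itga6 and Sparc were the only 2 genes of the 5 lists that DESeq2 called, where edgeR had tested 103. Over all genes with a DESeq2 adjusted p it called 240 of 15707, or 1.53%. The 2 calls are to be read against that share.

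The next 5 genes, Plat, Plau, Furin, Gab1 and Nrp1, were named for their roles after their values were seen. Plat, tissue plasminogen activator, which cleaves PDGF-C, had 63.3, 10.2 and 4.44 CPM in KO replicates 1 to 3, and 134, 34.6 and 55.1 CPM in HET replicates 1 to 3. Plau, urokinase, which cleaves PDGF-D and can activate HGF, had 65.1, 21.4 and 17.6 CPM in KO, and 89.1, 71.0 and 23.2 CPM in HET. Both overlapped between the labels (edgeR adjusted p = 0.658 and 0.706). Furin, a convertase of PDGF-A and PDGF-B, had 110 ± 27.8 CPM in KO and 105 ± 25.9 CPM in HET (SD, n = 3 each), and Gab1, the docking adaptor of Met, had 22.0 ± 11.6 CPM in KO and 24.3 ± 7.01 CPM in HET. Their edgeR adjusted p-values were 0.944 and 0.922. Nrp1, a co-receptor for several growth factors, was at 134 ± 59.9 CPM in KO and 143 ± 103 CPM in HET (adjusted p = 0.962).

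Downstream of the receptors, few genes had an unadjusted p under 0.05. Among 28 tested receptor-proximal adaptors and enzymes there was 1, Stat3, with 157, 153 and 97.7 CPM in KO and 274, 217 and 258 CPM in HET (log2 fold change -0.88 ± 0.26, edgeR adjusted p = 0.579). The 2 next in that list were Pik3cb, at 59.9 ± 51.1 CPM in KO and 23.6 ± 3.14 CPM in HET, and Src, at 103 ± 19.6 CPM in KO and 78.8 ± 10.2 CPM in HET. Of 25 genes of the ERK and AKT cascade, 1 was higher and 3 were lower. Pak1, a kinase effector of Rac, had 69.9 ± 24.7 CPM in KO and 37.8 ± 5.18 CPM in HET. Rps6kb1, S6 kinase, had 56.2 ± 3.99 CPM in KO and 81.8 ± 11.3 CPM in HET, and Braf had 42.3 ± 4.14 CPM in KO and 64.3 ± 13.6 CPM in HET. The edgeR adjusted p was 0.579 for each of these 3 kinases. The remaining gene, Rras, a small GTPase named after its values were seen, had a log2 fold change of -0.81 (unadjusted p = 0.0444). The median log2 fold change was -0.07 for the adaptors and -0.14 for the cascade.

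Of 22 tested genes in the list of attenuators of receptor signalling, 1 was lower at an unadjusted p under 0.05 and none higher. This was Socs3, a feedback inhibitor induced by cytokine signalling through Stat3, with 21.5, 27.0 and 15.7 CPM in KO and 78.4, 32.9 and 47.9 CPM in HET (log2 fold change -1.31 ± 0.38, edgeR adjusted p = 0.579). Lrig1, which promotes loss of several receptor tyrosine kinases, had 158 ± 101 CPM in KO and 68.3 ± 27.9 CPM in HET. The list also held Decr1, which encodes a dienoyl-CoA reductase of fatty acid oxidation and is not an attenuator. Its log2 fold change was -0.604 (edgeR unadjusted p = 0.0919), with the labels not overlapping. Decr1 thus counts among the 22 here, and among the 103 tested pathway genes and the 14 without overlap. The relatives of the PDGF receptors and their ligands gave 0 of 5 tested. Kitl, the ligand of Kit, had 55, 22.0 and 105 CPM in KO and 17.4, 99.0 and 386 CPM in HET. Csf1r, the macrophage colony-stimulating factor receptor, had 4.78, 0.491 and 24.3 CPM in KO and 20.8, 43.6 and 16.6 CPM in HET, and Flt3l had 2.67 ± 1.12 CPM in KO and 3.63 ± 1.12 CPM in HET.

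**Figure D5:**
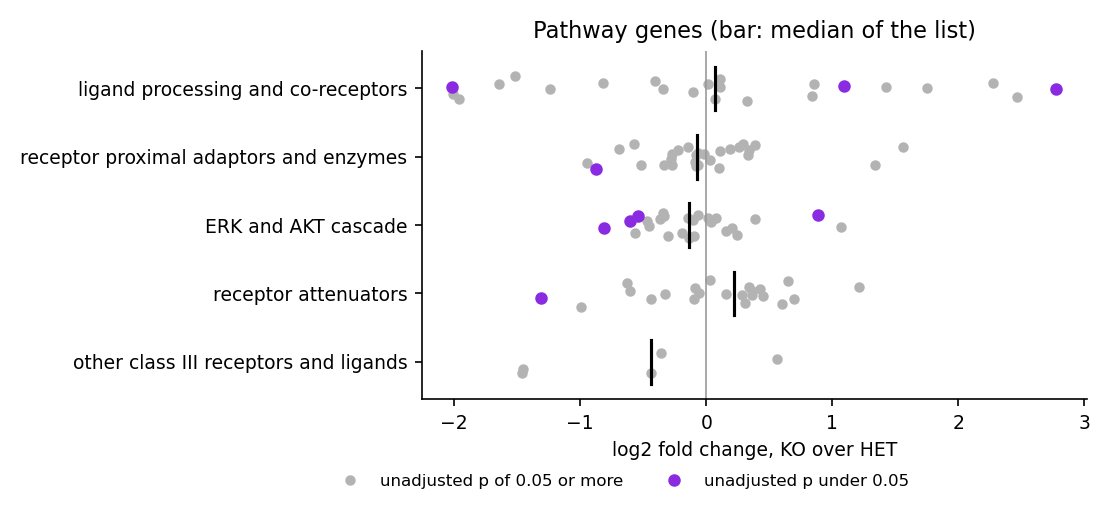
Log2 fold change (KO over HET) of each tested gene in the 5 pathway lists, with a bar at the median of each list; purple points have an unadjusted p under 0.05. The medians run from -0.44 for the class III relatives to 0.22 for the attenuator list, and 9 of 103 points are purple.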

How the data were processed

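The authors deposited, per library, a table of estimated counts per gene symbol, not scaled between libraries, with 85.1% of the values whole, zeros included (tolerance 1e-06), and a table of RPKM values. Bowtie2, cutadapt 1.2.1 and Partek were used with GRCm38 (mm10), per the submitters' processing notes. Annotation and counting method are not given in the sources used here. Library kits were stranded with ribosomal RNA removed, per the labels' protocols. Of 48408 rows, 30 with a biotype word in place of the gene were left out, and 7 symbols on several rows were summed. Groups follow the genotype label, and replicate numbers follow accession order.

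Estimated counts were rounded, filtered with filterByExpr and tested for 17584 genes by edgeR 4.0.16 in R 4.3.3 (TMM, quasi-likelihood F test, two-sided, Benjamini-Hochberg adjustment, threshold 0.05). Standard errors are the absolute log2 fold change over the square root of F. DESeq2 1.42.0 and limma 3.58.1 gave alternatives. The count tests were run on simulated data with 200 genes changed, as a check of the code. That simulation gave all genes the same spread. It was not matched to the spread among these libraries, so it cannot show how the tests behave here. Gene positions are from GENCODE M21 (GRCm38). Exonic length is the union of all annotated exons. Named genes are the 8, the 3 of smallest unadjusted p in each pathway list, and the 3 nearest in pattern, of which 1 gene is not reported here. Plat, Plau, Furin, Gab1, Nrp1, Rras and Decr1 were named outside this rule. The genes and lists were chosen with earlier results of these data known. Floors of 3 counts, 0.0682 to 0.119 CPM, cover counting error only, as the reads carry no molecular identifiers.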

Additional observations from a re-analysis of the deposited data

How the results depend on the processing

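For each of the 8 genes, no setting gave an adjusted p under 0.05, and the smallest was 0.305, for Met by DESeq2. Pdgfd, Pdgfrb, Hgf and Met kept their direction under all 17 alternatives, with log2 fold changes from -2.03 to -0.17, -1.58 to -0.52, -2.45 to -0.18 and 0.49 to 3.09. Pdgfb kept its direction under the 15 that could be fitted. The filtered RPKM fits held no Pdgfb value. With a single library left out, the lowest unadjusted edgeR p was 0.0182 for Met (without KO replicate 3) and 0.0153 for Pdgfb (without HET replicate 2). It was 0.0184 for Pdgfd (without HET replicate 1) and 0.0230 for Pdgfrb (without HET replicate 3). The adjusted p was 0.393, 0.975, 0.564 and 0.816. Over all genes, 2281, 648, 1597 and 1085 lay under an unadjusted p of 0.05 in these fits. With KO replicate 3 and HET replicate 3 left out together, the unadjusted p was 0.0100 for Met and 0.0157 for Pdgfrb. There 1545 genes lay under 0.05, and the adjusted p was 0.456 and 0.482. RPKM fits with an added 1 give small changes for low genes by construction.

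Pdgfa turned positive with library totals alone (0.11) and on log2(RPKM + 1), filtered or not (0.057 each), and log2(RPKM + 0.1) (0.12). It ran from -0.35 to 0.30 with a library left out. Pdgfc was 0.096, 0.007, 0.007 and 0.021 under the same settings and ran from -0.66 to 0.40 with a library left out. With KO replicate 3 and HET replicate 3 left out together it was -1.16. Pdgfra ran from -1.42 to 0.64 with a library left out and was 0.96 with that pair left out. The cause was not tested.

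DESeq2 called 240 genes where edgeR called 0. Genes at an unadjusted p under 0.05 numbered 1511, and 648 to 2281 with a library left out, lowest without HET replicate 2, 917 without KO replicate 2 and highest without KO replicate 3. No paired analysis was possible because only 1 title number is shared between the labels. With a term for it, 1055 genes had an unadjusted p under 0.05 and 0 an adjusted p under it.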

Other observations

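The deposited RPKM values are scaled to gene span. Over 7337 genes whose genomic span exceeds 3 times their exonic length, the length implied by count and RPKM lay within 10% of 1.22 times the span in 96.1%, and within 10% of 1.22 times the exonic length in 0.0681%. Pdgfc has 5.09 kb of exons and an implied length of 218 kb, and Pdgfd has 3.15 kb of exons and an implied length of 257 kb. Ranks of long genes such as these on the RPKM scale are therefore not ranks per exonic length.

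Annotated genes overlap 6 of the 8 genes. The antisense 6330403L08Rik at the start of Pdgfa had up to 703 estimated counts in a library, and Gm43489 inside Hgf had up to 49.6. The rest with a value had at most 22.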
